A study of Rattus norvegicus with 40 samples.

Results

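The transcripts described here are the 150 whose abundance varied most from rat to rat in the liver, of 31715 transcripts listed. Abundance was taken in TPM (reads scaled for transcript length and library size), on the log2(TPM + 1) scale. In each tissue the mean of each genotype was subtracted, and the SD of what remained was taken over the 10 samples. A transcript entered with a mean of at least 5 TPM and at least 20 estimated counts in all 10 samples of a tissue, and was given to the tissue where its SD was largest. Of 8051 transcripts that passed in the liver, 2653 had their largest SD there. Transcripts at 20 times or more the mean of every other tissue (0.1 added), 475 in number, were dropped, and the 150 highest of the 2178 left were taken. Their SDs were thus chosen to be large, as was their excess over the other tissues, and every liver spread and covariation below is a description with no test. At the edge of the choice, the last 2 members had SDs of 0.394 and 0.393, and the next 2 transcripts, left out, had 0.390 and 0.389.

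The series holds RNA sequencing of 4 tissues, the hippocampus, the soleus muscle, the perirenal fat and the liver, with 5 SHR-Tti2+/- and 5 wild-type littermate samples of each and 40 in all. The rats were of strain SHR/OlaIpcv, the spontaneously hypertensive rat, and the age of the sequenced rats is not given in the sources used here. SHR-Tti2+/- rats carried 1 copy of Tti2 with a short frameshift deletion made by a zinc finger nuclease, in a line bred from 1 founder. The samples came from 12 rats, and the liver was sequenced in wild-type rats 1, 2, 4, 5 and 6 and in SHR-Tti2+/- rats 1, 2, 4, 5 and 6, where equal numbers mark different animals. The study's methods removed a hippocampus sample that stood apart on principal components, without saying which, and all hippocampus samples were kept here. A rat number with the same genotype was read as the same animal in the other tissues.

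Tti2 is a subunit of a chaperone complex that stabilizes large kinases of the mTOR, ATM and ATR family. The liver takes up and releases glucose and lipids, makes most plasma proteins and clears foreign compounds. Its transcript levels are known to follow meals, fasting, hormones, inflammation and the time of day, so animals of 1 inbred strain can differ in them. As the tissues were sequenced in bulk, fewer cells of a type and less RNA per cell cannot be told apart in any value below. The files list Ensembl transcript IDs without gene names. The members are therefore given by their rank of SD, with 4 of them named by ID, and neither Tti2 nor markers of liver cell types could be looked up.

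The liver samples held between 23868012 and 32318812 estimated counts, and the 10 highest transcripts took between 22.7% and 23.9% of each total. A non-member was the only transcript called between the genotypes in 3 tissues by the test described below. It was picked by calls under these labels, the liver's among them, so its values there cannot check the labels. It lay between 10.9 and 15.9 CPM (counts scaled to library size) in wild-type liver and between 6.90 and 8.38 CPM in SHR-Tti2+/- liver. The lowest wild-type value, 10.9 CPM, was that of wild-type rat 6, the rat that stood out most among the members.

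Members varied by several fold between rats of 1 strain. Their median SD was 0.51 on the log2(TPM + 1) scale, between 0.39 and 1.22, against 0.11 for all transcripts passing in the liver. The highest rat stood above the lowest by a median of 3.77-fold, against 1.33-fold for all, and by at least 4-fold in 66 members and at least 10-fold in 11. The largest such difference, 60.04-fold, was that of the member of rank 14. Its CPM moved against that of another member in the liver, as described below. The sum of that pair varied by only 1.17-fold between the liver samples. Read counting alone would give a median SD of 0.072 at the members' mean counts, if counts followed a Poisson distribution. The effective length used to compute TPM varied between rats with a median SD of 0.0056 on the log2 scale and exceeded 0.05 in 1 member.

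Members tended to be of low abundance. Their median level was 10.8 TPM against 15.6 TPM for all passing transcripts, and 47.3% of them lay under 10 TPM against 32.3% of all. Only 8 members (5.33%) reached 100 TPM, against 11.3% of all. Their median length was 1575 bases against 1866. Of the 150, 50 had their highest mean level in the liver (33.3%, against 20.5% of all). Another 49 had it in fat (32.7%, against 32.95%), 38 in the hippocampus (25.3%, against 39.04%) and 13 in muscle (8.67%, against 7.49%). The rule shaped these shares. It gave the liver each transcript that passed there alone and dropped those at 20 times or more the mean of every other tissue. In the other tissues, 66 members passed the level filter in muscle, 107 in fat, 87 in the hippocampus and 49 in all 4 tissues, while 29 passed in the liver alone. Among those that passed, the SD in the liver was a median of 2.04 times that in muscle, 2.01 times that in fat and 2.58 times that in the hippocampus. The same ratios over all transcripts were 0.93, 1.02 and 0.98, which shows what the choice of members had fixed.

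The member with the largest spread, ENSRNOT00000026303.4 (3130 bases), was at 1.08, 0.855, 6.97, 8.06 and 4.30 TPM in wild-type rats 1, 2, 4, 5 and 6. It was at 15.8, 3.42, 1.11, 1.11 and 9.38 TPM in SHR-Tti2+/- rats 1, 2, 4, 5 and 6. Low rats near 1 TPM and rats at several times that level occurred in both genotypes, and SHR-Tti2+/- rat 1 was highest. In fat the same transcript was at 5.20 to 6.63 TPM in 4 wild-type rats and at 18.2 TPM in wild-type rat 1, which was among the lowest in the liver. In the hippocampus, where it was most abundant, it stayed between 27.1 and 48.2 TPM.

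Rank 2, ENSRNOT00000011948.4 (1421 bases), was at 8.34, 9.08, 3.33, 2.77 and 39.7 TPM in wild-type rats 1, 2, 4, 5 and 6. It was at 3.61, 21.97, 7.504, 20.7 and 15.1 TPM in SHR-Tti2+/- rats 1, 2, 4, 5 and 6. Wild-type rat 6 alone stood above all SHR-Tti2+/- rats. Wild-type rat 6 was also sequenced in muscle and hippocampus. In muscle it was the lowest of the 10 at 7.84 TPM. In the hippocampus it was at 11.273 TPM, among 4.98 to 11.299 TPM.

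Rank 4, ENSRNOT00000002522.4 (3389 bases), was at 7.36, 5.52, 29.7, 30.0 and 4.62 TPM in wild-type rats 1, 2, 4, 5 and 6. It was at 25.005, 10.02, 22.97, 3.81 and 13.7 TPM in SHR-Tti2+/- rats 1, 2, 4, 5 and 6. In wild-type rats it thus took either a low level, in 3 rats, or a level of 29.7 TPM or more, in 2. Fat gave a like division, with wild-type rats 4 and 5 at 28.999 and 31.1 TPM and wild-type rats 1, 2 and 3 between 9.14 and 11.03 TPM.

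Rank 5, ENSRNOT00000083668.1 (1467 bases), was at 22.006, 14.7, 1.03, 13.4 and 3.04 TPM in wild-type rats 1, 2, 4, 5 and 6. It was at 19.2, 13.1, 12.2, 7.60 and 11.02 TPM in SHR-Tti2+/- rats 1, 2, 4, 5 and 6. Wild-type rats 4 and 6 were below every SHR-Tti2+/- rat, while wild-type rat 1 was above all of them. In the other tissues its estimates fell to nearly 0 in some rats. They were under 1 TPM in 2 rats in muscle, 1 in fat and 4 in the hippocampus, down to 5.63e-07, 6.20e-05 and 1.46e-05 TPM, and it passed the level filter in the liver alone.

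**Figure D1:**
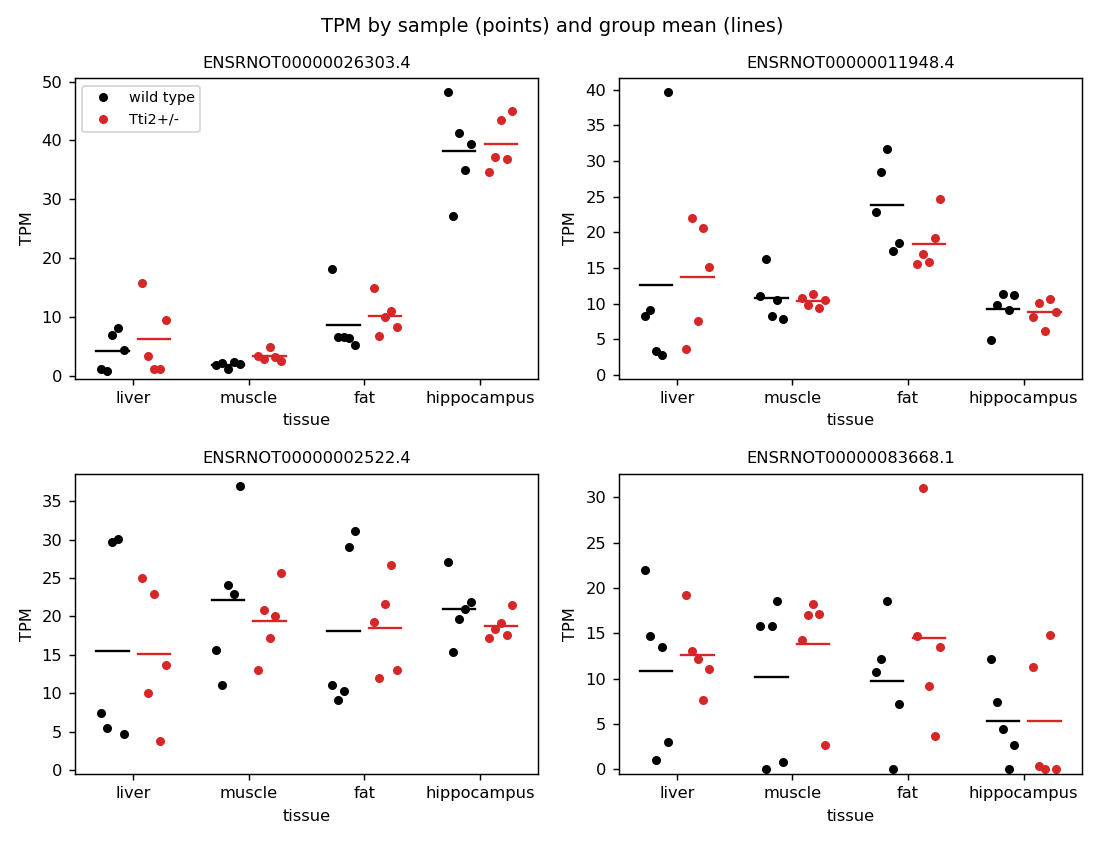
TPM of the 4 members named by ID in every sample (points; vertical axis in TPM, linear) with the mean of each group of 5 rats (lines), by tissue (horizontal axis), in wild-type (black) and SHR-Tti2+/- rats (red). The genotypes overlap in every liver panel, and ENSRNOT00000011948.4 shows wild-type rat 6 at 39.7 TPM, far above the other wild-type livers.

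The transcripts most like the named ones in their deviations over the 10 livers lay outside the 150. Of the 8051 transcripts passing in the liver 7901 were non-members, so few members could be expected among these. A correlation of 0.9 or more with ENSRNOT00000026303.4 was found for 3 transcripts, with ENSRNOT00000011948.4 for 13, with ENSRNOT00000002522.4 for 0 and with ENSRNOT00000083668.1 for 4, and none of these was a member. At -0.9 or less there were 5, 5, 18 and 2 transcripts, in the same order. Among members the closest were ranks 142, 40, 138 and 90, in the same order, at 0.79, 0.896, 0.71 and 0.87.

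No single rat carried the spread. If all rats deviated alike, each would hold 10% of the summed squared deviation of the members. Wild-type rat 6 held 15.0% and SHR-Tti2+/- rat 1 held 13.99%, against 12.5% and 11.9% over all passing transcripts. SHR-Tti2+/- rat 6 held the least, 5.30%. Wild-type rats together held 49.2%, against 48.3% over all, and the spread was larger in wild-type rats for 71 members and in SHR-Tti2+/- rats for 79.

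Counting for each member the rat farthest from its genotype mean, wild-type rat 6 was that rat in 26 members, 15 above and 11 below the mean. SHR-Tti2+/- rats 1 and 4 were so in 22 each, 10 of 22 above the mean for rat 1 and 1 of 22 for rat 4. SHR-Tti2+/- rat 4 was also the farthest rat for 18.98% of all passing transcripts, more than any other rat, so that its 14.7% of members was not above the level in the liver at large. SHR-Tti2+/- rat 2 and wild-type rat 1 followed with 20 members each, 12 above for the former and 5 above for the latter. In 32 members (21.3%, against 11.9% of all), 1 rat held at least 50% of the squared deviation.

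**Figure D2:**
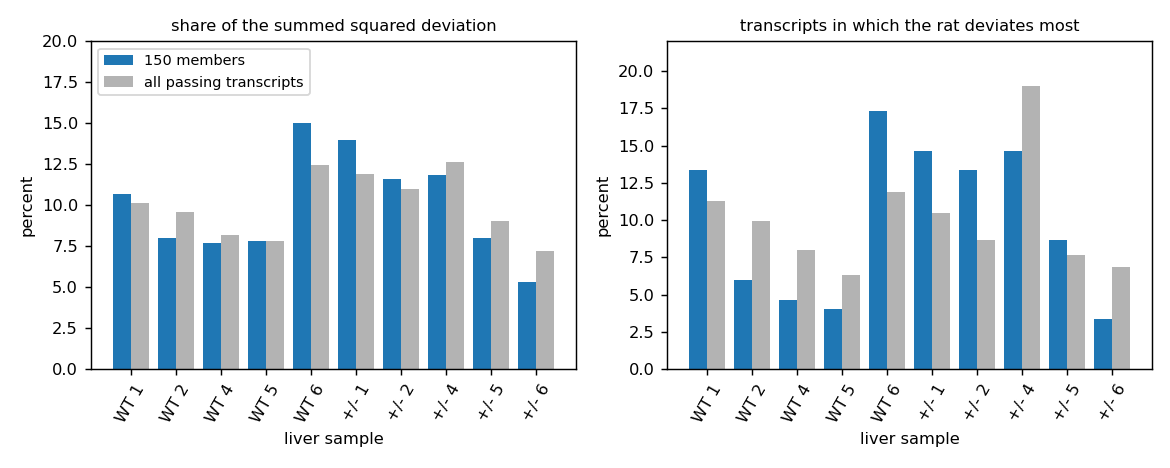
Share of the summed squared deviation held by each liver sample (left, percent) and share of transcripts in which that sample lay farthest from its genotype mean (right, percent), for the 150 members (blue bars) and all passing transcripts (grey bars). Wild-type rat 6 leads among the members with 15.0% and 17.3%, while SHR-Tti2+/- rat 4 leads on the right among all transcripts with 18.98%.

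The members did not vary as 1 group. The leading principal component of their deviations held 25.98% of the variance, the next ones 19.5%, 16.5% and 12.3%. Over all passing transcripts the same 4 shares were 20.97%, 18.7%, 16.3% and 12.3%. The leading component set wild-type rat 6 against SHR-Tti2+/- rat 1, with scores of 0.63 and -0.54, and the next set SHR-Tti2+/- rat 4 at 0.68 against rat 2 at -0.46. Of the 11175 pairs of members, 1.51% correlated at 0.8 or more and 0.66% at -0.8 or less, against 1.02% and 0.53% of all pairs. These correlations run over the same 10 libraries with the genotype means removed, which leaves 8 degrees of freedom.

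Clustered on these correlations (average linkage, cut at a mean correlation of 0.7), 40 members fell into 5 blocks of at least 5. Another 90 fell into 33 smaller blocks of 2 to 4, and 20 stood alone. The number and size of the blocks changed with the settings, as given below. The largest block held 11 members, with levels between 5.27 and 93.8 TPM. It was low in SHR-Tti2+/- rat 4, where the mean deviation was -0.95, and high in SHR-Tti2+/- rat 2 at 0.51. In 10 of the 11, SHR-Tti2+/- rat 4 was the farthest rat. The block was not particular to the members, since 324 non-members followed its mean at a correlation of 0.8 or more and 61 at -0.8 or less.

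The next block, of 9 members, was high in wild-type rats 1 and 2, at 0.70 and 0.66, and in SHR-Tti2+/- rats 1 and 2, at 0.51 and 0.45. It was low in wild-type rat 6 at -0.91 and in SHR-Tti2+/- rat 5 at -0.63. The third block, of 8 members, was set by wild-type rat 6, at 1.18, and 6 of the 8 had that rat as the farthest. The block of 7 was high in wild-type rat 6 and SHR-Tti2+/- rat 2, at 0.77 and 0.78, and low in SHR-Tti2+/- rats 1 and 4, at -0.66 and -0.68. The block of 5 was at -0.56 in wild-type rats 1 and 2 and at 0.58 in wild-type rat 6. Wild-type rat 6 was thus at an extreme of the wild-type rats in each of the 5 blocks, lowest in the block of 9 and highest in the rest. The means of the blocks of 8 and 7 correlated at 0.83, those of the blocks of 9 and 5 at -0.76, and those of the blocks of 9 and 8 at -0.61.

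**Figure D3:**
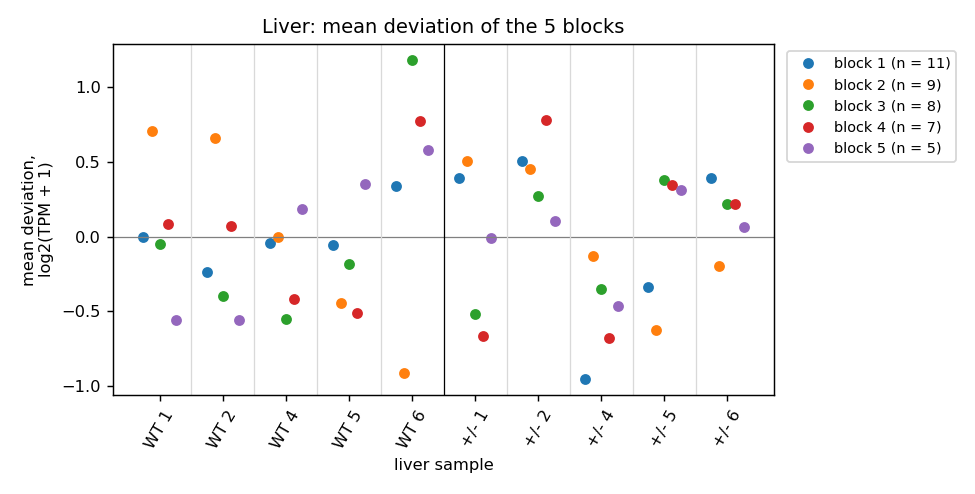
Mean deviation of the members of each of the 5 blocks from the genotype mean in each liver sample (vertical axis, log2(TPM + 1); 1 point per block and rat). The block of 8 lies at 1.18 in wild-type rat 6, where the block of 9 lies at -0.91, and the block of 11 lies at -0.95 in SHR-Tti2+/- rat 4.

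**Figure D4:**
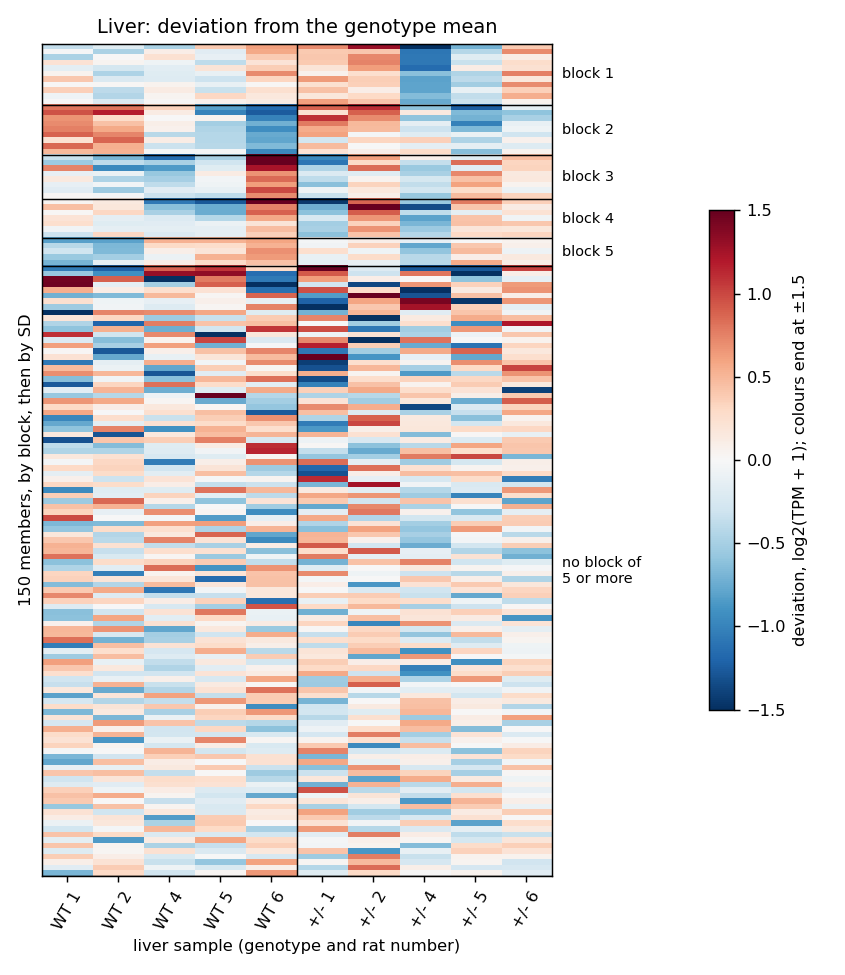
Deviation of each of the 150 members (rows, grouped by block and then by SD) from its genotype mean in the 10 liver samples (columns), in log2(TPM + 1), with colours ending at 1.5 in either direction. Below the 5 blocks, the other members show high and low rats in many different combinations.

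A pair of members moved against each other almost exactly. Ranks 7 and 14, of 5383 and 5403 bases, had correlated deviations of -0.99 in CPM in the liver. The member of rank 7 was at 36.9, 27.1, 31.1, 29.8 and 8.58 CPM in wild-type rats 1, 2, 4, 5 and 6 and at 52.9, 31.2, 2.34, 28.3 and 42.4 CPM in SHR-Tti2+/- rats 1, 2, 4, 5 and 6. Rank 14 was at 17.7, 27.5, 25.2, 30.0 and 51.0 CPM in the former and at 0.862, 23.7, 49.5, 23.1 and 14.6 CPM in the latter. Their sum stayed between 51.4 and 59.9 CPM in all 10 rats.

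On the log2 CPM scale the SD was 1.27 and 1.33 for the 2 members and 0.063 for their sum. The same held in tissues where the pair was not chosen for its spread. Their deviations correlated at -0.99 in muscle, -0.98 in fat and -0.90 in the hippocampus, and the sum had an SD of 0.067, 0.040 and 0.059 there. The share of the sum given to the member of rank 7 ran from 4.51% to 98.4% in the liver, from 8.10% to 95.6% in muscle, from 35.8% to 94.1% in fat and from 56.1% to 83.2% in the hippocampus. A rat did not keep its share between tissues. SHR-Tti2+/- rat 4 had 4.51% in the liver, 63.4% in muscle, 63.7% in fat and 83.2% in the hippocampus. The authors' software divides reads that fit several transcripts between them, and whether the 2 share sequence or a gene was not tested here.

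**Figure D5:**
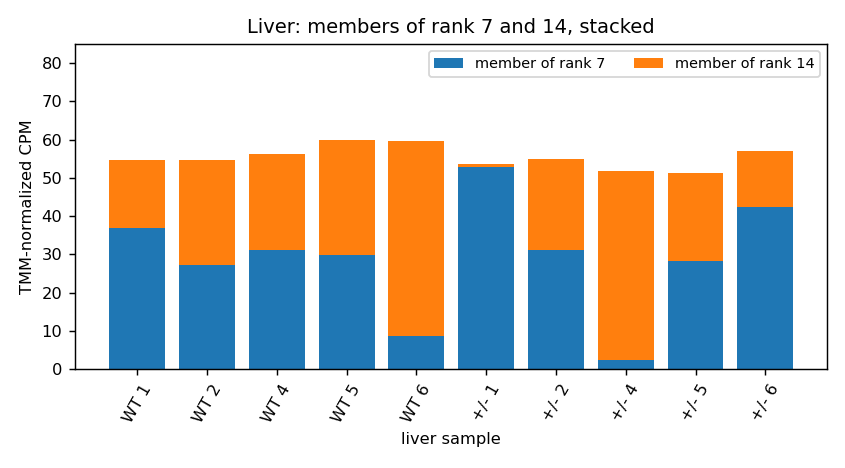
TMM-normalized CPM of the members of rank 7 (blue) and rank 14 (orange), stacked, in each liver sample. The height of the stack stays between 51.4 and 59.9 CPM while the division between the 2 runs from nearly all blue in SHR-Tti2+/- rat 1 to nearly all orange in SHR-Tti2+/- rat 4.

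Of all members, 10 (6.67%) had such a partner, a transcript passing in the liver whose CPM deviations correlated with theirs at -0.95 or less in a ratio near 1 to 1. Over all passing transcripts the share was 6.81%. In the cases other than ranks 7 and 14 the partner was no member. For the member of rank 36, at 16.2 CPM, the partner was at 128 CPM.

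The rule used the size of the spread in the other tissues but not which rats were high there. Whether the choice by liver spread alone moves the correlations below away from those of all transcripts was not tested. Over the 8 rats with liver and fat, 107 members correlated between the tissues with a median r of 0.28. For all 7064 transcripts passing in both it was 0.13. In fat 14.02% of members reached 0.7 against 6.14% of all, and 0.93% lay at -0.7 or less against 2.27%. Over the 8 rats with liver and muscle, the median was 0.04 for 66 members against 0.06 for all, but 13.6% reached 0.7 against 5.52%, and 7.58% lay at -0.7 or less against 3.01%. Over the 8 rats with liver and hippocampus, the median was -0.06 for 87 members and -0.06 for all. There 2.30% reached 0.7 against 3.07%, and 3.45% lay at -0.7 or less against 4.63%. No member reached 0.7 in more than 1 other tissue, and 26 of the 121 that passed in another tissue did so in 1. The same count over all transcripts was not made, so these 2 counts cannot be set against the liver at large.

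Among the named transcripts, ENSRNOT00000002522.4 had r = 0.90 and Spearman's rho = 0.83 between liver and fat over 8 rats. Exact permutation of the rats within each genotype gave p = 0.033 for r and p = 0.080 for rho, and 0.264 and 0.319 after Benjamini-Hochberg adjustment over the 8 relations computed, so it did not pass. Without the 2 rats farthest from the median in the liver r was 0.96. For ENSRNOT00000011948.4 the liver and fat values gave r = 0.70 and rho = 0.67 (exact permutation p = 0.087 and 0.073, adjusted 0.347 and 0.319), and 0.91 without the 2 farthest rats. For ENSRNOT00000026303.4 the liver and fat values gave r = -0.11, and -0.51 without the 2 farthest rats. In muscle r was -0.49 for ENSRNOT00000011948.4 and -0.086 for ENSRNOT00000002522.4, and without the 2 farthest rats it was 0.21 and 0.61, so that the sign rested on those rats. Between liver and hippocampus r was -0.19 for ENSRNOT00000026303.4, 0.33 for ENSRNOT00000011948.4 and -0.20 for ENSRNOT00000002522.4, and 0.10, 0.16 and 0.082 without the 2 farthest rats.

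The closest correspondence between tissues was that of the member of rank 56, at r = 0.98 between liver and fat, which was singled out after its values were seen. In the liver it was at 135, 93.5, 131, 93.4 and 79.0 TPM in wild-type rats 1, 2, 4, 5 and 6 and at 118, 125, 53.9, 39.0 and 94.4 TPM in SHR-Tti2+/- rats 1, 2, 4, 5 and 6. In fat it was at 136.5, 120.5, 139.9 and 129 TPM in wild-type rats 1, 2, 4 and 5 and at 148, 148.97, 115 and 111 TPM in SHR-Tti2+/- rats 1, 2, 4 and 5. The same rats were thus high and low in both tissues, over a much narrower range in fat. Its r with the liver was 0.66 in muscle and -0.30 in the hippocampus.

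The difference between the genotypes was not used to choose the members, since each genotype mean was removed. The spread within the genotypes was used, and the test sets the difference against that spread. Each tissue was tested with edgeR's quasi-likelihood test across all transcripts, and a transcript was called at a Benjamini-Hochberg adjusted p under 0.1 with a fold change of at least 1.5. In the liver, 1 of the 150 members was called, higher in SHR-Tti2+/- rats, where 0.206% of all 18423 tested transcripts were called (38). An unadjusted p under 0.05 was reached by 16 members (10.7%, 9 higher and 7 lower), against 10.1% of all. The genotypes did not overlap in 3 members (2.00%), against 2.58% of all. Both shares were near those of the tissue at large.

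Large fold changes were common among the members, and so were large errors. The choice by spread within the genotypes built in larger errors, and with them larger fold changes at any p. A fold change of 1.5 or more, at any p, was seen in 32 members (21.3%, 16 in each direction) against 7.49% of all tested. The median size of the log2 fold change was 0.29 against 0.12, and the median standard error was 0.30 against 0.14. The median signed log2 fold change was -0.012, against 0.00098 over all.

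The called member, of rank 58 and 389 bases, was at 275, 292, 151, 203 and 142 TPM in wild-type rats 1, 2, 4, 5 and 6 and at 345, 968, 424, 587 and 854 TPM in SHR-Tti2+/- rats 1, 2, 4, 5 and 6. Every SHR-Tti2+/- rat was above every wild-type rat, and the level varied within each genotype. In normalized counts it was at 34.7 ± 10.9 CPM (SD, n = 5) in wild-type and 107 ± 43.9 CPM (SD, n = 5) in SHR-Tti2+/- rats. The log2 fold change was 1.62 with a standard error of 0.30 (adjusted p = 0.085, edgeR with Benjamini-Hochberg adjustment). Left out in turn, each rat but SHR-Tti2+/- rat 1 ended the call, with log2 fold changes from 1.43 to 1.78 and edgeR adjusted p-values from 0.044 to 0.215. With DESeq2 the adjusted p was 0.00032. In the hippocampus, too, the genotypes did not overlap for it (5.13 ± 1.21 and 7.23 ± 0.52 CPM), but it was not called (log2 fold change 0.50, edgeR adjusted p = 0.939).

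In the other 2 members without overlap, of rank 83 and 122, the levels were lower in SHR-Tti2+/- rats. Rank 83 was at 78.7 ± 26.1 CPM (SD, n = 5) in wild-type and 35.1 ± 11.2 CPM in SHR-Tti2+/- rats, and its log2 fold change was -1.16 (edgeR adjusted p = 0.144). Rank 122 was at 25.6 ± 8.60 and 10.7 ± 3.07 CPM, a log2 fold change of -1.251 (edgeR adjusted p = 0.138). Neither passed edgeR's threshold in this fit. Among the transcripts with at least 10 counts in every sample both passed (edgeR adjusted p = 0.085 and 0.082), as they did with DESeq2 (0.0011 and 0.0014), and rank 122 also passed without wild-type rat 1 (edgeR adjusted p = 0.085). In the other fits that left out 1 rat, neither passed.

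Another case, the member of rank 3, of 1090 bases and in the block of 8, was singled out after its values were seen. It was at 11.7, 8.91, 6.16 and 10.4 TPM in wild-type rats 1, 2, 4 and 5, at 98.7 TPM in wild-type rat 6, and at 39.4, 119.9, 82.4, 68.5 and 107 TPM in SHR-Tti2+/- rats 1, 2, 4, 5 and 6. Wild-type rat 6 was within the range of the SHR-Tti2+/- rats, and the other 4 wild-type rats were below all of them. Over all rats its log2 fold change was 1.67 ± 0.73 (standard error; edgeR adjusted p = 0.483), and without wild-type rat 6 it was 3.20 ± 0.33 (edgeR adjusted p = 0.014). As the member was ranked high through that rat, this value is a description of the other 9 livers. Without rat 6, 2 members were called, where 0.313% of all 18193 tested were. They were this one and the member of rank 115, also of the block of 8. Wild-type rat 6 set that block, so leaving that rat out removed spread on which the block rests. Both calls are thus a description of the other 9 livers and not a result about the members. In fat the member of rank 3 was at 23.5 to 44.0 TPM in wild-type rats and 42.1 to 76.1 TPM in SHR-Tti2+/- rats, and wild-type rat 6 was not sequenced there. In muscle it was at 39.5 TPM in wild-type rat 6, among 13.04 to 54.7 TPM in wild-type and 12.8 to 35.7 TPM in SHR-Tti2+/- rats.

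The 4 members named by ID overlapped between the genotypes in the liver. On CPM, the exact permutation test of 5 against 5 rats, run two-sided, gave p = 0.563 for ENSRNOT00000026303.4, p = 0.865 for ENSRNOT00000011948.4, p = 0.984 for ENSRNOT00000002522.4 and p = 0.619 for ENSRNOT00000083668.1. In muscle, where it did not pass the level filter, ENSRNOT00000026303.4 was at 1.86 ± 0.49 TPM (SD, n = 5) in wild-type and 3.32 ± 0.92 TPM in SHR-Tti2+/- rats, without overlap (exact permutation p = 0.0079, the smallest that 5 against 5 rats allow, and 0.127 after Benjamini-Hochberg adjustment over 16 tests). The other 11 tests in muscle, fat and hippocampus gave exact p-values of 0.119 or more.

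In muscle, 0 of 136 members tested were called by edgeR, where 0.00552% of all were called, and 16 had an unadjusted p under 0.05 (11.8%, against 6.84% of all). DESeq2 called 1 (0.221% of all). In fat, 0 of 147 were called (0% of all), and 11 had an unadjusted p under 0.05 (7.48%, against 6.96%). DESeq2 called 0 in fat (0.0989% of all). In the hippocampus, 0 of 138 were called (0.00483% of all). There 9 had an unadjusted p under 0.05 (6.52%, against 4.22%), 8 of them higher in SHR-Tti2+/- rats, and DESeq2 called 0 (0.0531% of all). The genotypes did not overlap in 3 members in muscle (2.21%, against 1.29% of all), in 0 in fat (against 1.32%) and in 4 in the hippocampus (2.90%, against 1.16%).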

How the data were processed

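RNA of 40 samples from 12 rats was analysed, 10 per tissue. Libraries were strand-specific, made from poly(A) RNA and read single-end. The authors estimated transcript abundance with kallisto (0.46.0 in the submitters' processing notes) against Ensembl rat cDNAand corrected for sequence bias. The deposited tables give the estimated count of each transcript as the authors' software made it, which need not be whole, and TPM, which the authors' software scaled for effective length and library size. They also hold the length and effective length of each transcript, the latter used here only to compare it between rats. The notes name genome build rn6, and no coordinates are in the tables. A table of 47357 genes matched 0 transcript IDs, so gene lists, cell type markers and sequences were not used.

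The members, the gene lists planned and the tests were chosen with earlier results of these data known. By ID were named the 2 members of highest SD whose farthest rat lay above its genotype mean and the 2 whose farthest rat lay below it. All others go by rank.

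Groups came from the labels. For the genotype test, estimated counts were rounded and fitted per tissue in R 4.3.3 with edgeR 4.0.16 (TMM, quasi-likelihood test, genotype as the only term), over transcripts with at least 5 counts in at least 47% of samples. CPM are TMM-normalized. The study used sleuth, whose filter and thresholds were kept. Other steps used Python 3.11.15, numpy 2.4.6, scipy 1.17.1 and pandas 2.3.3. Alternatives were median-of-ratios size factors, DESeq2 1.42.0, other filters and thresholds, other pseudocounts, CPM in place of TPM, a replicate block and each sample left out. The selection and the fits were tested on simulated data.

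Totals lay between 19176393 and 32713126 estimated counts per sample. No pair of samples in a group agreed within sampling noise (chi-square per degree of freedom at least 6.38). The labels name rats, and p-values measure the spread between rats of 1 line. The labels call the fat peritoneal, the methods perirenal.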

Additional observations from a re-analysis of the deposited data

Results flagged for a closer look

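In each genotype, 5 samples at a time, the named transcripts in every tissue and the liver block means and library or deviation measures were examined for 1 sample far from the others (Dixon's ratio above 0.71). Of 48 groups, 3 held such a sample. The liver values were chosen for their spread, so a far sample there is a description, and the count is not read against chance. ENSRNOT00000026303.4 was at 18.2 TPM in the fat of wild-type rat 1. ENSRNOT00000011948.4 was at 39.7 TPM in the liver of wild-type rat 6, a transcript chosen for its spread in that tissue. ENSRNOT00000083668.1 was at 2.72 TPM in the muscle of SHR-Tti2+/- rat 6.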

How the results depend on the processing

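Of the 150 members, 87 were shared with the list made with at least 100 estimated counts per sample, 81 with no filter on counts, and 119 to 138 with 1 liver left out. The members in which 1 rat held at least 50% of the squared deviation fell from 32 to 17 with at least 100 counts and to 20 with a pseudocount of 5, and ran from 31 to 44 with 1 liver left out. The leading component held 25.6% to 32.8% and the rat with the highest share 15.7% to 18.04% with 1 liver left out. With fewer livers an even share per rat is above 10%, so these shares are not read as a rise. The rat with the highest share was wild-type rat 6 or SHR-Tti2+/- rat 1 under every setting. Pairs correlated at 0.8 or more in size made up 2.17% and, with 1 liver left out and fewer degrees of freedom, 2.98% to 3.70%. Blocks of at least 5 members numbered 5 in the main list and 6 to 10 under the other settings. They held 40 members in the main list and 39 to 70 under the others. The largest block held 11 members and, under the others, 8 to 19. Of the 150 liver members, 3 were called with at least 10 counts in every sample (0.435% of all tested) and 7 with DESeq2 (0.646% of all). At an adjusted p under 0.05, 0 were called (0.0977% of all). With 1 liver left out, 0 to 2 were called (0.0604% to 0.313% of all). DESeq2 called 1 in muscle (0.221% of all). With 1 sample left out, 0 were called in muscle, fat and hippocampus, where at most 0.028% of all were. The cause of these shifts was not tested. The liver log2 fold changes of the named transcripts, none of them called, changed sign with 1 liver left out. They ran from -0.17 to 0.91 for ENSRNOT00000026303.4, from -0.085 to 1.28 for ENSRNOT00000011948.4, from -0.25 to 0.39 for ENSRNOT00000002522.4 and from -0.025 to 0.66 for ENSRNOT00000083668.1.

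Rat numbers mark different animals in the genotypes, and same-numbered livers deviated with correlations of 0.0027 to 0.10. For wild-type rats 1 and 4 the same-numbered SHR-Tti2+/- liver was the closest, and for rats 2, 5 and 6 it was not. Such correlations cannot decide whether equal numbers share anything beyond the label, which was not tested. With the rat number as a replicate block, 1 liver member was called, where 0.0597% of all were. It was that of rank 122, in place of rank 58 (edgeR adjusted p = 0.173). In the other tissues 0 members were called (0% of all). With this block the log2 fold change of ENSRNOT00000002522.4 in the liver was 0.32 in place of -0.013. Counting error at this depth, taken as Poisson, was small beside the spread (median SD 0.072 against 0.51 on the log2 scale). It leaves out any error in dividing reads between transcripts, which was not measured here. Groups of 5 rats limit every genotype contrast.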
